A study of Mus musculus with 6 samples.

Results

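The 38 genes described here belong to the mitochondrial carrier family, SLC25, and were measured in mouse liver. They were taken as every target whose deposited gene description contains "solute carrier family 25". The description picked 52 of 44170 target rows, and for each gene name the row with the highest mean log2 intensity over all 6 arrays was used. This left 38 of 36475 features, a feature being a named gene or a target without a gene name. The rule uses no difference between the groups. Carrier-fold genes with another description, Slc25a51 among them, are not in the 38 and are given further below.

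Livers were taken from 6 wild-type male C57 BL/6 mice aged 9 to 10 weeks, 1 mouse per NimbleGen single-colour array. In the LPS/GalN group 3 mice had received 0.01 µg of LPS (lipopolysaccharide, a component of the bacterial outer membrane) plus 20 mg of GalN (galactosamine, a sugar derivative whose metabolism in hepatocytes uses up uridine nucleotides and which sensitises the liver to LPS). In the LPS group 3 mice had received 0.01 µg of LPS alone. All 6 mice therefore carried LPS, the treatment lasted 2.5 hours in each, and the replicates of a group came from separate treatments. Mice without LPS, or with GalN alone, were not analysed here, so every difference below is that of LPS/GalN against LPS.

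Mitochondrial carriers are small proteins of the inner mitochondrial membrane built from repeats of a single sequence module. They exchange ADP for ATP and bring in phosphate, coenzyme A, carboxylates, amino acids, acylcarnitines, iron, glutathione and vitamin cofactors, and a few members sit in the outer membrane or in peroxisomes. In hepatocytes they link the cytosolic and mitochondrial steps of the urea cycle, fatty acid oxidation, gluconeogenesis, lipogenesis and haem synthesis.

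Each array reported the linear RMA (robust multi-array average) intensity of every target, given below as log2 intensity. Array medians lay between 60.35 and 63.11 on the linear scale, and a row that summarises 5000 random probes, used as the background level, lay between 4.97 and 5.12 on the log2 scale. On the 6 arrays 17.5% to 22% of rows were at or below that background. Of the 38 carrier genes, 28 were above it on all 6 arrays and 10 were not. Slc25a35 was above it on no LPS/GalN array. An intensity depends on the probe, so levels are compared between arrays for 1 gene. Between genes, levels were used only to choose which genes are given in full.

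Several libraries stood apart in markers of other tissues. All 6 hepatocyte markers were above background on every array. The mean log2 intensity of 8 measured intestinal markers was 7.03, 7.26 and 7.06 in LPS/GalN livers, against 10.65, 10.93 and 7.08 in LPS livers, so LPS replicates 1 and 2 were high. The mean of 5 measured thymus and T cell markers was 6.01, 10.37 and 9.57 in LPS/GalN livers, against 6.39, 5.99 and 6.51 in LPS livers, so LPS/GalN replicates 2 and 3 were high. Sinusoidal endothelial markers (6 measured, all above background on every array) averaged 10.54, 10.32 and 10.42 in LPS/GalN livers, against 9.15, 9.00 and 9.87 in LPS livers. Of the 6, 3 passed the threshold upwards (limma adjusted p under 0.05), beside 0.6% of all features. Lyve1 had the smallest log2 difference (0.28), and for Kdr the groups overlapped through LPS replicate 3 (10.16). The 5 Kupffer cell markers averaged 10.20, 9.91 and 10.36 in LPS/GalN livers, against 9.31, 9.79 and 9.78 in LPS livers, and none passed the threshold. The 4 measured neutrophil markers averaged 7.15, 6.72 and 7.15 in LPS/GalN livers, against 7.74, 7.72 and 7.94 in LPS livers. Of these, 2 passed the threshold downwards, beside 3.02% of all features: S100a8 (log2 difference -1.655) and S100a9 (-1.552). Mpo (-0.073) and Elane (0.095) were near background and did not pass it. Pancreatic markers averaged between 6.13 and 6.47 in LPS/GalN livers and between 6.54 and 6.74 in LPS livers. Muscle markers averaged between 5.28 and 5.86 in LPS/GalN livers and between 5.67 and 6.11 in LPS livers. Adipose markers averaged between 5.65 and 6.04 in LPS/GalN livers and between 5.69 and 6.16 in LPS livers. Among these, Cidec read 5.32, 5.30 and 6.975 in LPS/GalN livers, against 9.57, 9.49 and 6.81 in LPS livers, so it was high in LPS replicates 1 and 2. The part of these markers in the results below was not tested. In whole liver RNA, fewer cells of a type and less RNA per cell cannot be told apart.

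Most carrier genes differed little between the groups, as did most of all features. Of the 38 genes, 1 rose (Slc25a30) and 1 fell (Slc25a45) at an adjusted p under 0.05, where limma's moderated test was fitted to all 36475 features and adjusted by the Benjamini-Hochberg method. That is 5.26% of the 38 genes, beside 3.62% of all features (0.6% upwards and 3.02% downwards). The fitted log2 difference was within 0.5 of 0 for 26 of the 38 genes and beyond 1 for 2, the 2 called genes. Over all features, bins 0.25 wide from -0.5 to 0.5 held 11.78%, 19.06%, 22.66% and 16.72%, in that order. By sign, 19 genes were higher and 19 lower in LPS/GalN livers. The median difference was 0.04 on the log2 scale (quartiles -0.29 and 0.41), beside 0.05 (quartiles -0.27 and 0.34) over all features. An unadjusted p under 0.05 was reached by 8 of the 38, or 21.1%, beside 17.6% of all features. The 3 LPS/GalN values all lay above the 3 LPS values for 9 genes (23.7%, beside 13.0% of all features) and all below them for 3 genes (7.89%, beside 11.1%). These shares are not like for like, since 28 of the 38 genes but 19800 of the 36475 features were above background on all 6 arrays. The 9 genes were all among those 28, and the share among the 19800 features was not computed.

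**Figure D1:**
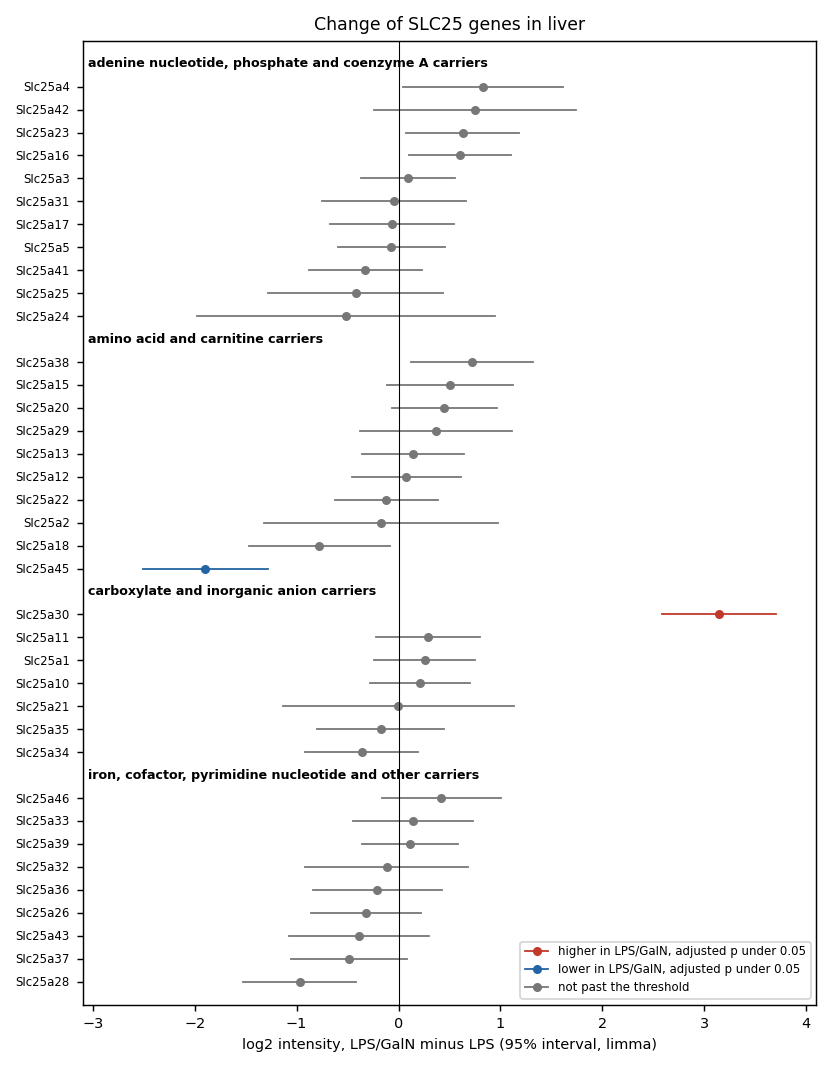
Difference in log2 intensity, LPS/GalN minus LPS, of the SLC25 genes reported here, with its 95% interval from limma, grouped by the substrates of the carriers. The red point is Slc25a30 at 3.14, the blue point is Slc25a45 at -1.90, and the grey points did not pass the threshold.

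**Figure D2:**
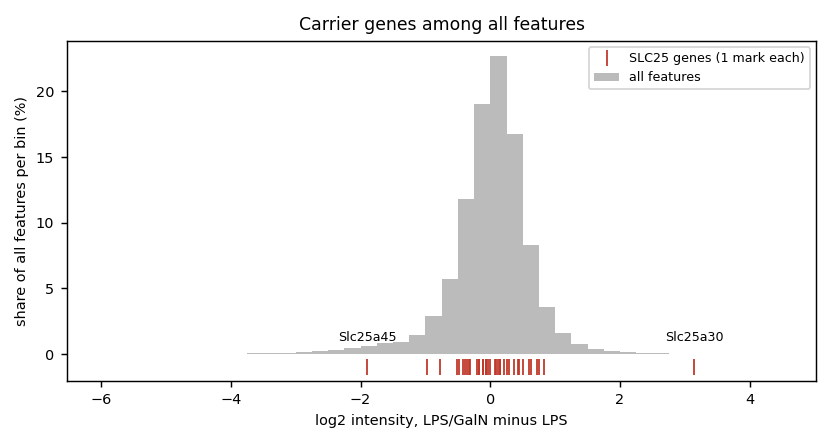
Distribution of the log2 difference, LPS/GalN minus LPS, over all 36475 features (grey bars, percent of features per bin), with 1 red mark below the axis for each SLC25 gene reported here. Slc25a30 at 3.14 and Slc25a45 at -1.90 lie outside the range of the other marks, which run from -0.97 to 0.83.

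Slc25a30, also called KMCP1, is a carrier described in mouse kidney mitochondria and reported to move inorganic anions such as sulfate. Its log2 intensity was 10.30, 9.98 and 9.82 in LPS/GalN livers, against 7.16, 6.72 and 6.78 in LPS livers. All 3 LPS/GalN livers were above all 3 LPS livers. The mean was 10.03 ± 0.25 in LPS/GalN livers and 6.89 ± 0.24 in LPS livers (SD, n = 3 each), a log2 difference of 3.14 ± 0.24 (SE) with a 95% interval of 2.58 to 3.71. This is 8.84-fold higher, with a limma adjusted p of 0.000635. By the size of its rise it ranked 18 among all features that were higher in LPS/GalN livers. The files place the gene on chromosome 14 at 76168153 to 76186769 (mm9), and a single target row measured it, so no other row of the gene can be set beside it.

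The difference of Slc25a30 kept its size when libraries were left out. With each of the 6 arrays left out in turn it lay between 3.01 and 3.28, with adjusted p between 0.00183 and 0.00638. Without LPS/GalN replicates 2 and 3, the libraries high in T cell markers, it was 3.42 (adjusted p = 0.0254), with 1 LPS/GalN array left. Without LPS replicates 1 and 2, the libraries high in intestinal markers, it was 3.25, and its adjusted p of 0.0653 missed the threshold. In both of these fits the lone array of a group is assumed to vary as the other group's arrays do, so their p-values carry no spread of its own group. In the last one no feature passed limma's adjusted threshold, while 3309 features had an unadjusted p under 0.05. The sinusoidal endothelial markers given above were also higher in LPS/GalN livers, and their part in the Slc25a30 difference was not tested.

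Slc25a45, an inner membrane carrier that in human cells has been linked to the uptake of methylated basic amino acids for carnitine synthesis, moved the other way. Its log2 intensity was 5.62, 5.92 and 5.65 in LPS/GalN livers, against 7.87, 7.84 and 7.17 in LPS livers. No LPS/GalN value reached the lowest LPS value. The mean was 5.73 ± 0.17 in LPS/GalN livers and 7.63 ± 0.40 in LPS livers (SD, n = 3 each), a log2 difference of -1.90 ± 0.27 (SE, 95% interval -2.51 to -1.28). This is 3.72-fold lower, with an adjusted p of 0.00706. By size it ranked 690 among the features that were lower in LPS/GalN livers. The LPS/GalN values were not far above the background of their arrays (5.12, 5.10 and 4.97). With 16 added to the linear intensity, the log2 difference was -1.63.

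The files place Slc25a45 on chromosome 19 at 5878472 to 5885768 (mm9), and 2 further target rows that overlap it carry other descriptions. One read 7.04, 5.80 and 5.64 in LPS/GalN livers, against 7.53, 8.72 and 7.84 in LPS livers, a difference of -1.87 ± 0.45 (adjusted p = 0.0657 over all rows), without overlap of the groups. The other read 6.32, 7.58 and 5.74 in LPS/GalN livers, against 8.10, 7.31 and 7.80 in LPS livers, a difference of -1.19 ± 0.46 (adjusted p = 0.233), and there the groups overlapped through LPS/GalN replicate 2. All 3 rows were lower on average in LPS/GalN livers, and only the row described as SLC25 passed the threshold. With single arrays left out, that row's difference lay between -2.12 and -1.77 with adjusted p between 0.00675 and 0.0398. It was -2.01 without LPS/GalN replicates 2 and 3 (adjusted p = 0.123) and -1.44 without LPS replicates 1 and 2 (adjusted p = 0.273). Each of these fits has a lone array in 1 group that is assumed to vary as the other group does, and in neither did the adjusted p pass the threshold.

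Slc25a28, mitoferrin 2, carries iron into the mitochondria of cells other than developing red cells. Its row read 10.59, 10.23 and 10.53 in LPS/GalN livers, against 11.35, 11.72 and 11.20 in LPS livers. The groups did not overlap, and the difference of -0.97 ± 0.24 (95% interval -1.52 to -0.42, 1.96-fold lower) had an unadjusted p of 0.00367 and an adjusted p of 0.0753. The call was therefore missed in the fit with 1 row per gene.

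Slc25a28 had 2 further SLC25 rows and 1 row at the same locus described as MRS3/4, an older name for mitoferrins taken from the yeast genes. The first of these SLC25 rows read 5.44, 6.23 and 5.73 in LPS/GalN livers, against 7.81, 7.74 and 7.19 in LPS livers, a difference of -1.78 ± 0.29 that passed the threshold over all rows (adjusted p = 0.0139). The other SLC25 row read 9.96, 9.86 and 9.98 in LPS/GalN livers, against 10.29, 10.68 and 10.59 in LPS livers, a difference of -0.58 ± 0.22 (adjusted p = 0.214). The MRS3/4 row read 9.39, 9.24 and 9.44 in LPS/GalN livers, against 10.01, 10.38 and 10.17 in LPS livers, a difference of -0.83 ± 0.22 (adjusted p = 0.0896). In each of the 4 rows every LPS/GalN value lay below every LPS value. When the log2 values of the 3 SLC25 rows were averaged before the fit, the difference was -1.11 with an adjusted p of 0.0261.

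**Figure D3:**
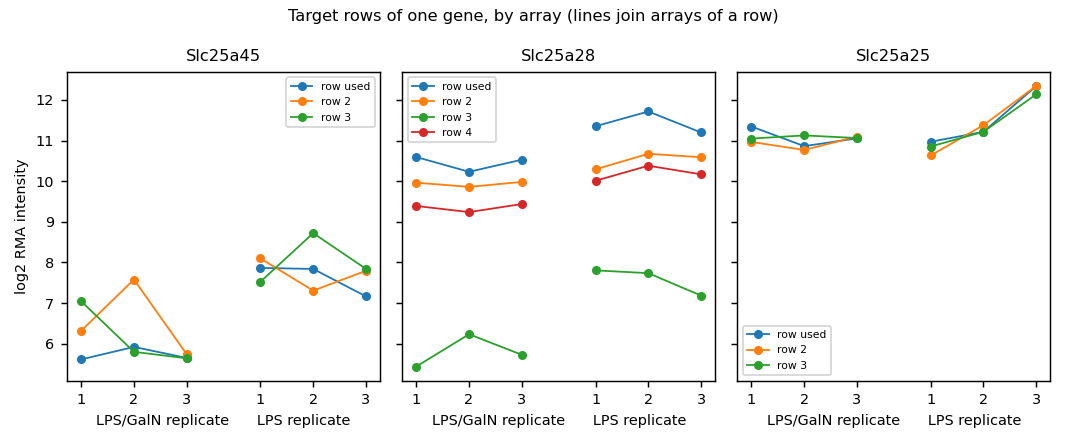
Log2 RMA intensity by array for the target rows at Slc25a45, Slc25a28 and Slc25a25, with LPS/GalN replicates left of LPS replicates in each panel, lines joining the arrays of a row, and blue marking the row used for the gene. The 4 Slc25a28 rows were all lower in LPS/GalN livers, while the 3 Slc25a25 rows were all highest in LPS replicate 3.

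The promoters of these 3 genes are shown because they are the genes with a row past the threshold. The sequences come from RefSeq (GRCm38.p6, a later build than the mm9 of the files, with no conversion between them), which held a promoter for 30 of the 38 members, and each runs from 250 bases before the gene's start to 50 bases after it, 5′ to 3′ on the gene's strand. Capitals mark GC boxes (GGGCGG) and CCAAT boxes (CCAAT) found on the printed or the opposite strand. Slc25a30 lies at chr14:75786988-75787287 on the minus strand, Slc25a45 at chr19:5877572-5877871 on the plus strand, and Slc25a28 at chr19:43674832-43675131 on the minus strand.
Slc25a30: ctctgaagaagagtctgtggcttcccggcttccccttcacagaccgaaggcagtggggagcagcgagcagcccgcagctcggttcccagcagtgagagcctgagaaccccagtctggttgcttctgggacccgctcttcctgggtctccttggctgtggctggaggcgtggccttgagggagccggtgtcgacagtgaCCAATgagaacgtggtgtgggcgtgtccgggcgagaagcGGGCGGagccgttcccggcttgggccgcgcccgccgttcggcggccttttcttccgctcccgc
Slc25a45: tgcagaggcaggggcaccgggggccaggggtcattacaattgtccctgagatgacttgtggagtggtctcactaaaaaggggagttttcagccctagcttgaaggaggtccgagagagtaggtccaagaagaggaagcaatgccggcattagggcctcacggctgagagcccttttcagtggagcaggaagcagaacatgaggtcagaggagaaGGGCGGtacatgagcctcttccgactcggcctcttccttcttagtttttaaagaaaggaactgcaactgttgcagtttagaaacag
Slc25a28: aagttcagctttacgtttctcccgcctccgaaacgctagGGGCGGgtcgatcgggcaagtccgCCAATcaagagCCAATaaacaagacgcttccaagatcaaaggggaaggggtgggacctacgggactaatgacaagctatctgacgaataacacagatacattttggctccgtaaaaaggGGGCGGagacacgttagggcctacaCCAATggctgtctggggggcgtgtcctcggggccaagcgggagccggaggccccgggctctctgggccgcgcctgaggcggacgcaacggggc

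The 3 promoters differ in base composition, with 66.7% G and C for Slc25a30, 52.7% for Slc25a45 and 60.0% for Slc25a28. The Slc25a30 window holds 1 GC box and 1 CCAAT box, the Slc25a45 window 1 GC box and no CCAAT box, and the Slc25a28 window 2 GC boxes and 3 CCAAT boxes. A GC box occurs in 35.7% and a CCAAT box in 37.4% of the 32851 mouse promoters of that length. TGACG, the core of a cyclic AMP response element, was found once, in Slc25a28, and occurs in 20.8% of promoters. None of the 3 windows holds the forkhead motif GTAAACA (3.65% of promoters) or a TATA box TATAAA (13.6%). Both strands were searched for every motif, and a match is a run of letters, not a bound site.

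**Figure D4:**
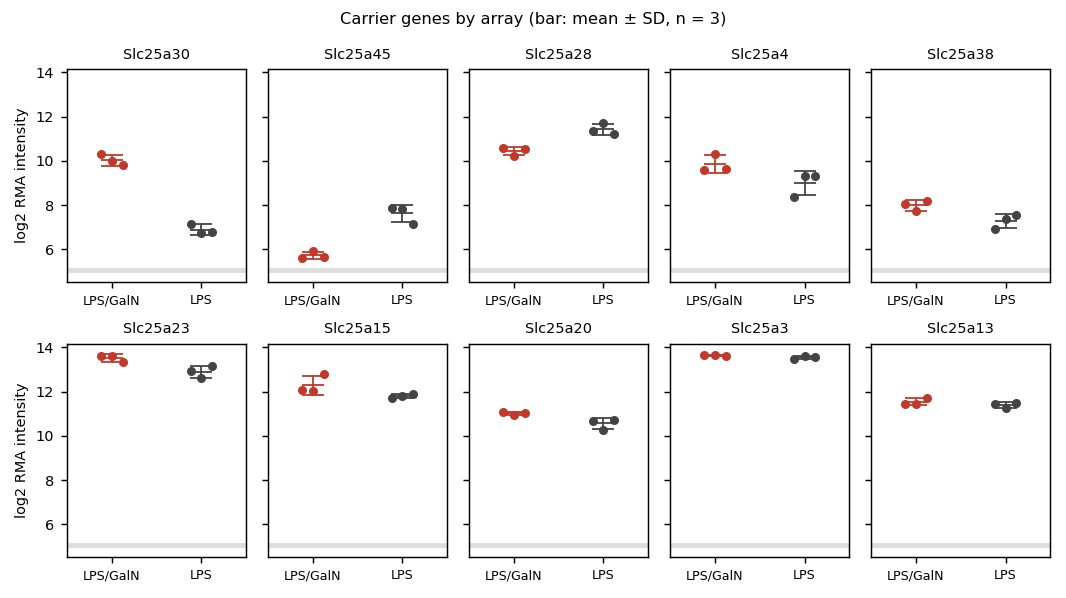
Log2 RMA intensity on each array for 10 SLC25 genes, with LPS/GalN left of LPS, points for mice, bars for mean ± SD (n = 3) and a grey band for the random-probe background. Slc25a30 is higher and Slc25a45 and Slc25a28 are lower in LPS/GalN livers without overlap, and Slc25a3 and Slc25a13 differ by 0.09 and 0.14.

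Among the 11 carriers of adenine nucleotides, phosphate and coenzyme A none passed limma's adjusted threshold, beside 3.62% of all features, and 3 had an unadjusted p under 0.05 (27.3%, beside 17.6%). By sign 5 were higher and 6 lower, and the median difference was -0.04 (range -0.52 to 0.83). Slc25a4, the ADP/ATP translocase ANT1, read 9.57, 10.30 and 9.64 in LPS/GalN livers, against 8.38, 9.32 and 9.33 in LPS livers. Its groups did not overlap, LPS replicate 1 was the lowest, and the difference was 0.83 ± 0.34 (adjusted p = 0.26). Without LPS replicate 1 it was 0.51. A second row of the gene differed by 0.31. Slc25a5, the translocase ANT2, read 12.77, 12.69 and 13.08 in LPS/GalN livers, against 13.04, 13.00 and 12.71 in LPS livers. Its groups overlapped, with a difference of -0.07 ± 0.23 (adjusted p = 0.912). The testis-type translocase Slc25a31 differed by -0.04.

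Slc25a3 imports the phosphate that ATP synthase uses. It read 13.65, 13.66 and 13.62 in LPS/GalN livers, against 13.48, 13.60 and 13.57 in LPS livers. The groups did not overlap but lay close together, and the difference was 0.09 ± 0.20 (95% interval -0.37 to 0.56, adjusted p = 0.856).

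The 4 measured ATP-Mg/phosphate carriers, of which Slc25a23, Slc25a24 and Slc25a25 are regulated by calcium, differed in sign, and none passed the threshold. Slc25a23 read 13.62, 13.63 and 13.32 in LPS/GalN livers, against 12.93, 12.61 and 13.15 in LPS livers. All LPS/GalN values were above the LPS values, with a difference of 0.63 ± 0.24 (unadjusted p = 0.0302, adjusted p = 0.225). Slc25a24 read 7.26, 4.74 and 6.16 in LPS/GalN livers, against 7.07, 6.95 and 5.69 in LPS livers, with the lowest value in LPS/GalN replicate 2 and a difference of -0.52 ± 0.63 (adjusted p = 0.736). Its sign turned when that array was left out (0.14).

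Slc25a25 read 11.35, 10.86 and 11.05 in LPS/GalN livers, against 10.97, 11.22 and 12.34 in LPS livers. LPS replicate 3 stood above the other 5 arrays, and the difference was -0.42 ± 0.37 (adjusted p = 0.622). A second SLC25 row and a further row at the locus also had LPS replicate 3 highest, at 12.34 and 12.14. This gene is described in more detail than the naming rule asked, after its values had been seen. Slc25a41, near background on most arrays, differed by -0.33.

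Slc25a42, which brings coenzyme A into mitochondria, read 7.92, 7.58 and 7.32 in LPS/GalN livers, against 6.95, 5.94 and 7.70 in LPS livers. The groups overlapped through LPS replicate 3, and the difference was 0.75 ± 0.43 (adjusted p = 0.425). It was 1.17 without LPS replicate 3 and 0.29 without LPS replicate 2. A row at the same locus with another description read 8.76, 8.07 and 8.42 in LPS/GalN livers, against 7.76, 7.44 and 7.88 in LPS livers, without overlap, and differed by 0.73 ± 0.26 (adjusted p = 0.199 over all rows). Another such row differed by 0.35 ± 0.31 with overlapping groups (adjusted p = 0.629). Slc25a16, whose yeast relative is linked to coenzyme A import, read 5.75, 6.16 and 5.92 in LPS/GalN livers, against 5.34, 5.34 and 5.34 in LPS livers. Its LPS values lay near the background of those arrays (5.09, 5.08 and 5.025). The groups did not overlap, and the difference was 0.60 ± 0.22 (unadjusted p = 0.0238, adjusted p = 0.2). Slc25a17, the peroxisomal carrier of coenzyme A and nucleotide cofactors, differed by -0.07 in the row used and -0.08 in the other.

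Of the 10 carriers of amino acids and carnitine, Slc25a45 was the 1 that passed the threshold (10.0%, beside 3.62% of all features), and 3 had an unadjusted p under 0.05 (30.0%, beside 17.6%). By sign 6 were higher and 4 lower, with a median difference of 0.11. Slc25a15, the ornithine carrier of the urea cycle, read 12.06, 12.04 and 12.79 in LPS/GalN livers, against 11.71, 11.78 and 11.88 in LPS livers. No LPS/GalN value was below an LPS value, and the difference was 0.50 ± 0.27 (adjusted p = 0.385), with LPS/GalN replicate 3 the highest. Without that array the difference was 0.26. Its paralogue Slc25a2 stayed near background, and its 2 rows had opposite signs (-0.17 and 0.39).

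Slc25a38, linked in yeast and human cells to the import of glycine for the first step of haem synthesis, read 8.06, 7.73 and 8.19 in LPS/GalN livers, against 6.91, 7.37 and 7.54 in LPS livers. Every LPS/GalN value was above every LPS value, and the difference was 0.72 ± 0.26 (unadjusted p = 0.0235, adjusted p = 0.199). Slc25a20, which exchanges acylcarnitines for carnitine in fatty acid oxidation, read 11.08, 10.95 and 11.01 in LPS/GalN livers, against 10.68, 10.28 and 10.73 in LPS livers. The groups did not overlap, the difference was 0.45 ± 0.22 (adjusted p = 0.354), and the second row of the gene differed by 0.42.

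The aspartate/glutamate carriers Slc25a13 (citrin, the main form in liver) and Slc25a12 differed by 0.14 ± 0.22 and 0.08 ± 0.23, with overlapping groups in both. Of the glutamate carriers, Slc25a22 differed by -0.12 ± 0.22, beside -0.15 in a second SLC25 row and -0.23 in a row at its locus with another description. The other glutamate carrier, Slc25a18, read 4.98, 4.70 and 4.999 in LPS/GalN livers, against 5.26, 5.49 and 6.26 in LPS livers. All its LPS/GalN values were below its LPS values, with 1 of 3 LPS/GalN arrays above background, and the difference was -0.78 ± 0.30 (unadjusted p = 0.0318, adjusted p = 0.23). Slc25a29, a carrier of basic amino acids near background here, differed by 0.37.

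Of the 7 carboxylate and inorganic anion carriers, Slc25a30 was the 1 that passed the threshold (14.3%, beside 3.62% of all features) and the 1 with an unadjusted p under 0.05 (14.3%, beside 17.6%). By sign 4 were higher and 3 lower, and the median difference was 0.21. Slc25a1, which exports citrate for fatty acid and sterol synthesis, read 12.90, 13.04 and 13.11 in LPS/GalN livers, against 12.67, 12.96 and 12.67 in LPS livers. The groups overlapped, with a difference of 0.26 ± 0.21 (adjusted p = 0.6). Slc25a10, the dicarboxylate carrier, read 14.07, 13.82 and 14.01 in LPS/GalN livers, against 13.89, 13.61 and 13.77 in LPS livers. Here too the groups overlapped, and the difference was 0.21 ± 0.21 (adjusted p = 0.672). The oxoglutarate carrier Slc25a11 of the malate-aspartate shuttle read 12.71, 12.48 and 12.94 in LPS/GalN livers, against 12.38, 12.45 and 12.44 in LPS livers. Its groups did not overlap, and the difference was 0.29 ± 0.22 (adjusted p = 0.554), beside 0.27 in its second row.

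Slc25a21, which carries oxoadipate and related acids, read 6.05, 5.99 and 7.93 in LPS/GalN livers, against 6.55, 6.69 and 6.73 in LPS livers. LPS/GalN replicate 3 lay above the other 5 arrays, and the difference was -0.001 ± 0.49. It was described after its values had been seen. The orphan carriers Slc25a34 and Slc25a35 were at or near background and differed by -0.36 and -0.18. Rows with another description at the loci of Slc25a21 and Slc25a35 differed by 0.04 and 0.05.

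Among the 10 carriers of iron, cofactors, pyrimidine nucleotides and others none passed limma's adjusted threshold, beside 3.62% of all features, and 1 had an unadjusted p under 0.05 (10.0%, beside 17.6%). By sign 4 were higher and 6 lower, and the median difference was -0.16. Slc25a37, mitoferrin 1, the form of developing red cells, read 9.77, 9.52 and 9.93 in LPS/GalN livers, against 10.45, 10.33 and 9.90 in LPS livers. Its groups overlapped narrowly, the difference was -0.49 ± 0.25 (adjusted p = 0.36), and a row at the locus with another description differed by 0.26. Slc25a39, a glutathione importer of the inner membrane, read 13.55, 13.38 and 13.52 in LPS/GalN livers, against 13.39, 13.43 and 13.30 in LPS livers. The groups overlapped, and the difference was 0.11 ± 0.20 (adjusted p = 0.83).

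The S-adenosylmethionine carrier Slc25a26 had 3 rows of mixed sign, with differences of -0.32, -0.06 and 0.77, of which none passed the threshold. Slc25a32, which carries folate or FAD, differed by -0.12. The pyrimidine nucleotide carriers Slc25a33 and Slc25a36 differed by 0.14 and -0.21. Slc25a46, an outer membrane protein that acts in mitochondrial shape, differed by 0.42, and the orphan Slc25a43 by -0.39, beside 0.25 in a row at its locus with another description. The adjusted p of these 5 last genes was above the threshold.

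Genes that work with the carriers, and carrier-fold genes that the rule did not pick up, were read from 9 lists with 97 measured features. Of these, 0 rose and 2 fell in the limma fit, beside 0.6% and 3.02% of all features. An unadjusted p under 0.05 was reached by 10 of the 97, beside 17.6% of all features. The first is Slc25a51, a mitochondrial NAD carrier in human cells, which the files list as mitochondrial carrier triple repeat 1, so the family rule did not pick it up. It read 10.65, 10.99 and 10.88 in LPS/GalN livers, against 12.11, 12.04 and 11.72 in LPS livers. The groups did not overlap, and the difference was -1.12 ± 0.23 (2.17-fold lower, adjusted p = 0.0372). The second is subunit VIIIc of cytochrome c oxidase, the last complex of the respiratory chain. It read 6.62, 5.86 and 6.27 in LPS/GalN livers, against 7.38, 7.58 and 7.45 in LPS livers, without overlap, and differed by -1.22 ± 0.26 (adjusted p = 0.0426). Without LPS replicate 1, LPS replicate 2, LPS/GalN replicate 2 or LPS/GalN replicate 3, each left out alone, 0 of the 97 features passed in limma and between 6 and 9 had an unadjusted p under 0.05. Without either of the other arrays 1 feature passed.

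No other listed gene passed the threshold. The other carrier-fold genes and channels (10 measured, Slc25a51 included) had a median difference of 0.35, with the uncoupling protein Ucp2 at 0.62 ± 0.32 (adjusted p = 0.376). The 6 urea cycle genes had a median of -0.09 (range -0.84 to 0.18), the 5 genes of the carnitine shuttle 0.14 (-0.48 to 0.36), and the 8 enzymes of the malate-aspartate and citrate shuttles 0.12 (-0.08 to 0.47). The 10 genes of the machinery that imports carrier proteins had a median of 0.18 (-0.62 to 0.35), and the 37 features described as subunits of ATP synthase or cytochrome c oxidase, an assembly factor and a second locus of subunit VIIb included, 0.12 (-1.22 to 0.34).

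The 9 mitochondrial iron and haem genes had a median difference of 0.23 (range -0.15 to 0.71), with the haem synthesis enzyme Cpox at the top. Among 6 genes of glutathione and one-carbon use, with a median of 0.41, the one-carbon enzyme Mthfd2 was the lowest at -1.56 (adjusted p = 0.1) and Shmt2, which makes one-carbon units from serine, the highest at 0.69 (adjusted p = 0.139). The 6 regulators of mitochondrial genes had a median of -0.06, with the coactivator Ppargc1a at -1.11 ± 0.53 (adjusted p = 0.331). The medians of these 9 lists lay between -0.09 and 0.41, beside 0.05 over all features.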

How the data were processed

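Liver RNA of 6 mice was measured on 6 one-colour NimbleGen arrays, and groups and replicate numbers were taken from the labels. The authors deposited linear RMA intensity per target, with 3 probes per target per the labels' design text. The RMA version is not given in the sources used here. The comparison of both groups was fitted to log2 intensity with limma 3.58.1 in R 4.3.3 (lmFit, eBayes, 4.01 prior degrees of freedom, two-sided), with no filter on dim features. Rows were joined by gene name and chromosome, taking the row with the highest mean over 6 arrays. Targets are located by gene, so exon or UTR positions were not examined.

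Members and lists were chosen with earlier results of these data known. Genes given in full were Slc25a30, members past the threshold, the 10 largest changes above the median of all features, the 6 brightest members, and called members of the partner lists. The values of 1 member are not reported here, although the counts and medians include it. Each result was recomputed under up to 17 alternatives, since the deposited value table of the series holds 25 of the members. The steps were tested on simulated data. P-values, SEs and intervals use each gene's spread between 3 mice per group, which limma draws towards the spread of all features. They are therefore not the spread of 1 gene alone, and 3 mice per group limit the precision.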

Additional observations from a re-analysis of the deposited data

How the results depend on the processing

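The median difference of the carrier genes lay between 0.0 and 0.15 under 17 alternatives. It moved by less than 0.171, the pooled SD within groups of each array's median log2 intensity over the members. That SD is a spread of levels, not of the median difference. The number of carrier genes past the threshold, 2, became 4 with limma's trend and robust options (2532 of all features, 7 partner features), 3 with rows averaged or 16 added to the intensity, 1 without LPS/GalN replicates 2 and 3 (269 of all features, 0 partner features), and 0 without LPS replicates 1 and 2 (0 of all features, 0 partner features), where limma still gave 4 carrier genes, 6 partner features and 3309 features an unadjusted p under 0.05. The deposited value table of the series, which held 25 of the 38 genes and neither Slc25a45 nor Slc25a24, gave 2024 features and 4 partner features. Its lowest intensity was 50, and its counts and adjustment rest on fewer features than the main fit, so they are not like for like. Quantile normalization gave 1 partner feature. With single arrays left out, the counts were 2 to 2 carrier genes, 0 to 1 partner features and 683 to 1715 features, the lowest without LPS replicate 1. Same-numbered arrays did not deviate together over all features (correlations 0.0021, -0.0017 and 0.026). Whether the numbers pair the mice cannot be read from this, since a shared effect on few genes would not show in it. With a replicate block 2 carrier genes, 936 features and 0 partner features passed. Slc25a28 passed the threshold with rows averaged (-1.11, adjusted p = 0.0261), in the series table (-0.97, 0.0222), with 16 added (-0.96, 0.0387) and with trend and robust (-0.97, 0.00142), which also brought Slc25a23 past it (0.63, 0.00812). Without LPS replicates 1 and 2 the Slc25a28 difference was -0.75. With each single array left out (-1.08 to -0.82, limma adjusted p between 0.0959 and 0.225) and with the replicate block (-0.97, 0.16), Slc25a28 missed the threshold. Slc25a30 missed it without LPS replicates 1 and 2 (3.25), and Slc25a45 there (-1.44) and without LPS/GalN replicates 2 and 3 (-2.01). Signs turned for Slc25a5 (0.007 without LPS/GalN replicate 2, 0.13 without LPS replicates 1 and 2), Slc25a24 (0.14 and 0.36 in the same fits, 0.69 without LPS/GalN replicates 2 and 3) and Slc25a42 (-0.087 without LPS replicates 1 and 2). With single arrays left out Slc25a5 ranged between -0.185 and 0.007 and Slc25a24 between -1.117 and 0.14. Fits with arrays left out use fewer samples; the cause of the other changes was not tested.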
